A study of Mus musculus with 9 samples.

Results

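Dendritic cells (DC) carry several surface molecules that were first described on T cells, and 9 genes encoding such molecules were followed here across the splenic DC subsets: Cd4, Cd8a, Cd8b1, Cd24a, Cd5, Cd2, Cd27, Lag3 and Thy1. They were selected by gene name, as 9 of the 39179 genes in the table, and each name matched 1 gene. RNA was sequenced from conventional DC type 1 (CD8-positive cDC1), conventional DC type 2 (CD8-negative cDC2) and plasmacytoid DC (pDC) of C57BL/6J spleens in the steady state, with 3 libraries per subset, each made from a pool of 15 to 17 mice. No mouse received a treatment, and all 3 subsets shared 1 genetic background. The labels give no age for the pooled mice. Before sorting, antibodies that included those to CD3ε, Thy-1, Ly6G/Ly6C and TER-119 were used for depletion, so that Thy1 was read in cells that had passed a depletion for its own product. The sort then took cDC1 as CD8+ CD11b- and cDC2 as CD8- CD11b+ among CD11c-high, CD317-low cells, and pDC as CD11c-intermediate, CD317-high, CD11b- cells. These gates are from the study's results, while its methods for sorted DC list stains for CD11c, CD45RA, CD8, CD11b and CD49b, without CD317. A level of Cd8a that differs between cDC1 and cDC2 is therefore what the gate selected and is given as a description, with counts of members shown both with and without it.

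T cells use CD4 and CD8 as coreceptors. CD4 binds MHC class II, and CD8 binds MHC class I as a homodimer of CD8α chains or as a heterodimer of CD8α and CD8β, encoded by Cd8a and Cd8b1. In the mouse spleen, CD8α without CD8β is the classical mark of resident cDC1, CD4 marks much of cDC2, and pDC can carry both CD4 and CD8. LAG-3 is a relative of CD4 that binds MHC class II and inhibits T cells, CD5 dampens antigen receptor signals, CD27 is a costimulatory receptor of the TNF receptor family, CD2 is an adhesion molecule, and CD24 and Thy-1 are glycoproteins held in the membrane by a lipid anchor.

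RefSeq promoter sequence on GRCm38.p6 was at hand for 3 members, whose mean levels were highest in different subsets, Cd8a in cDC1, Cd5 in cDC2 and Cd27 in pDC. The 250 bases upstream of each RefSeq start are shown 5′ to 3′ on the strand of the gene, at chr6:71373177-71373426 (plus strand) for Cd8a, chr19:10738975-10739224 (minus strand) for Cd5 and chr6:125237028-125237277 (minus strand) for Cd27. The last bases of the Cd5 window lie inside the GENCODE M21 span of Cd5 given below (chr19:10717116-10739002), which starts farther upstream. Capitals mark E-boxes (CANNTG, the same on both strands), the sequence read by basic helix-loop-helix proteins such as the pDC factor TCF4.
Cd8a: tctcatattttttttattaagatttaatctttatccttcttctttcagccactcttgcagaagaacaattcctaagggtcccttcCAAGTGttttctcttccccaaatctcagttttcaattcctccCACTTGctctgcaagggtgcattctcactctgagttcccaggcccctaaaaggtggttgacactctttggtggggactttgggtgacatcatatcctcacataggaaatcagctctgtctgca
Cd5: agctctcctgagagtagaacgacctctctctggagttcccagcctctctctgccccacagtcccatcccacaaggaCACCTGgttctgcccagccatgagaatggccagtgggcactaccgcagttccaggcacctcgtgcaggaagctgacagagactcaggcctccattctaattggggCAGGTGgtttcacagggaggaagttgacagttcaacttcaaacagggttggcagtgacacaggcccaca
Cd27: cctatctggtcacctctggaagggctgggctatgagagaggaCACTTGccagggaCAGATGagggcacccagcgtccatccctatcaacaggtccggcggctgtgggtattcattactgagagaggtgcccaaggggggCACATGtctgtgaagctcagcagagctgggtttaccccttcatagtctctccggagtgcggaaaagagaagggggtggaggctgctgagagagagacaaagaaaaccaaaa
The Cd8a window held 2 E-boxes, the Cd5 window held 2 and the Cd27 window held 3, while 66.2% of 32851 promoter windows of this length held at least 1. Both strands were also searched for TGTGGT, the core letters of a RUNX site, which can share its first letters with the end of an E-box (in 14.0% of windows), and for AGGAAG, an ETS pattern (29.5%). The Cd5 window held AGGAAG at 2 places outside the E-boxes, the Cd8a and Cd27 windows did not hold it, and TGTGGT had no match in the 3 windows.

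The libraries held 15806597 to 32453789 counts on genes, so that 3 counts, taken as the limit of detection, corresponded to 0.0924 to 0.190 CPM (counts per 1000000 counts on genes). All levels below are CPM after TMM scaling between libraries, and ± is the SD over 3 libraries. Markers of the sorted subsets went with the labels: all 4 pDC markers tested (Siglech, Bst2, Ccr9, Tcf4) stood higher in pDC than in either conventional subset. Of the cDC2 markers (Itgam, Sirpa, Clec4a4, Irf4) all 4 exceeded their cDC1 level in cDC2, and of the 4 cDC1 markers 3 (Xcr1, Clec9a, Cadm1, not Batf3) fell short of it there. Bst2 encodes CD317 and Itgam encodes CD11b, both used in the sort. Their differences are therefore what the gates selected and are no separate check of the labels. Transcripts of the T cell receptor complex were few. Cd3e, which encodes CD3ε, gave 3, 12 and 0 counts in the cDC1 libraries, 7, 16 and 8 in cDC2 and 1, 3 and 16 in pDC, and Cd3g, which encodes CD3γ, gave 7, 11 and 5, then 11, 58 and 59, then 5, 10 and 10. Cd3g thus reached its highest counts in cDC2 replicates 2 and 3, and Cd3e did not exceed 16 in any library. The difference in Cd3g between pDC and cDC2 (log2 fold change -2.17, adjusted p = 0.0588) did not pass an adjusted p of 0.05 by edgeR's quasi-likelihood test, which sets the calls below, but it passed with the replicate number as a block (-1.96, adjusted p = 0.0345). Natural killer (NK) cell markers, summed over 6 genes, stood at 22.8, 37.5 and 89.1 CPM in the 3 cDC2 libraries. The sum ran from 9.71 to 30.5 in cDC1 and from 10.6 to 43.0 in pDC. Replicate 3 was highest in each subset. Gzma was the largest part of the sum in replicate 3 (cDC1 15.0, cDC2 40.6, pDC 25.3 CPM). Each of the 6 genes was highest in replicate 3, except Klre1 among the pDC libraries (1.88, 1.11 and 1.24 CPM). Ncr1 differed little between pDC replicates 1 and 3 (1.66 and 1.88 CPM). The share of NK cells in the libraries was not tested.

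All 9 members passed the filter on low counts. Between pDC and cDC1, 7 of 9 passed the test, 5 higher in pDC (Cd4, Cd8b1, Cd27, Lag3, Thy1) and 2 lower (Cd8a, Cd24a), where 48.6% of the 13819 genes tested passed, 24.3% as higher and 24.4% as lower. Between pDC and cDC2, 6 of 9 passed, 5 higher in pDC (Cd4, Cd8a, Cd8b1, Lag3, Thy1) and 1 lower (Cd5), against 45.8% of genes, 22.5% higher and 23.3% lower. Between cDC2 and cDC1, 6 of 9 passed, with Cd4, Cd5 and Thy1 higher in cDC2 and Cd8a, Cd8b1 and Cd24a lower, against 24.4% of genes, 12.7% higher and 11.7% lower. Without Cd8a, which the gate used, 5 of 8 passed in that comparison, 3 higher and 2 lower, 5 did not overlap, and the median log2 fold change was 1.20. The median log2 fold change over the members was 2.99, 1.78 and 1.18 in the 3 comparisons in that order, and over all genes tested it was 0.02, -0.01 and 0.03. Scaling by library size alone moved the share of all calls that were higher in cDC2 than in cDC1 from 52.2% to 63.1%, with the directions of the members kept. Libraries of the 2 subsets did not overlap for 7, 6 and 6 members, as they did not for 58.6%, 56.1% and 44.5% of genes. The comparisons share libraries, so that their counts are not independent of each other. In bulk RNA, fewer positive cells and less RNA per cell cannot be told apart, which holds for every level given here.

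**Figure D1:**
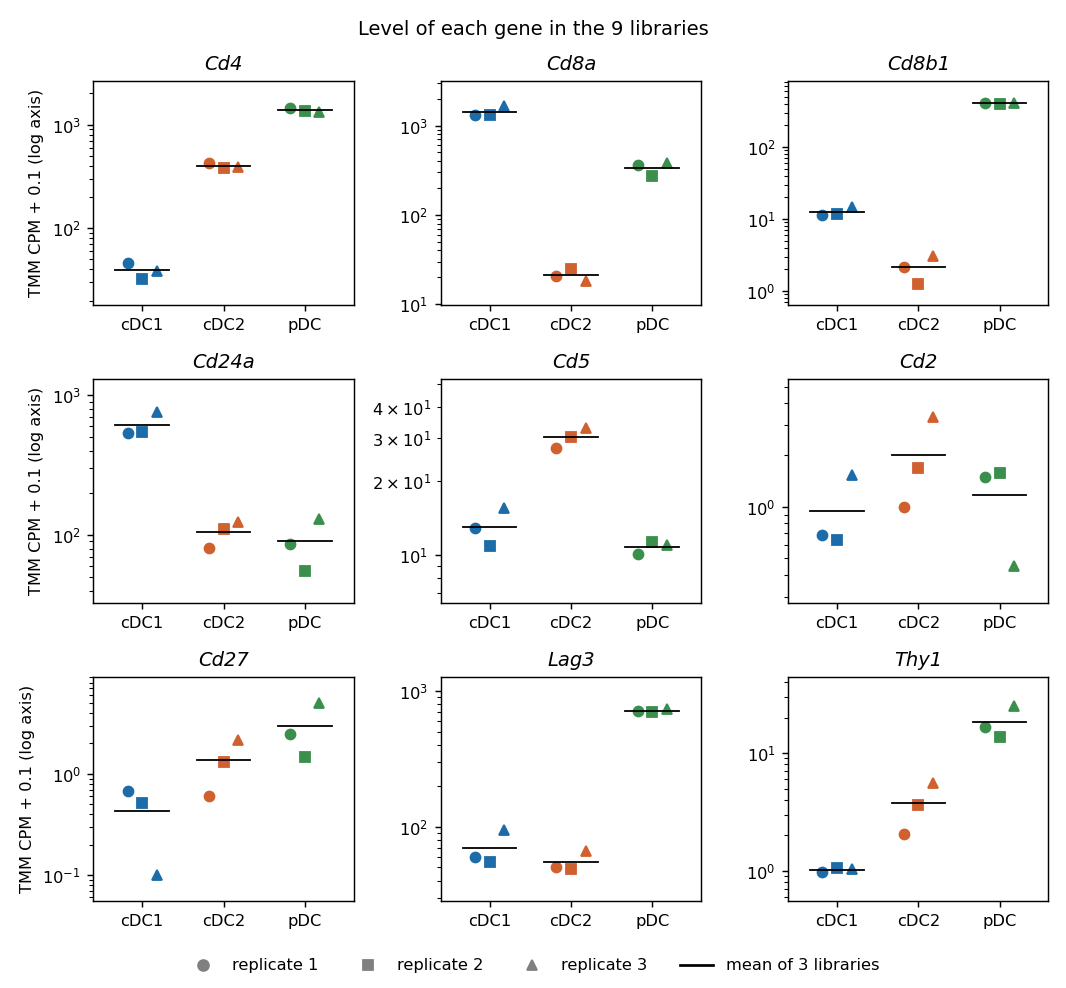
Level of each of the 9 genes in the 9 libraries, as TMM-normalized CPM plus 0.1 on a log axis whose range differs between panels, with a point for each library (shaped by replicate) and a line for the mean of each subset. Cd4, Cd8b1 and Lag3 stand highest in the pDC libraries, Cd8a and Cd24a in cDC1 and Cd5 in cDC2, while the libraries of the 3 subsets overlap for Cd2.

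**Figure D2:**
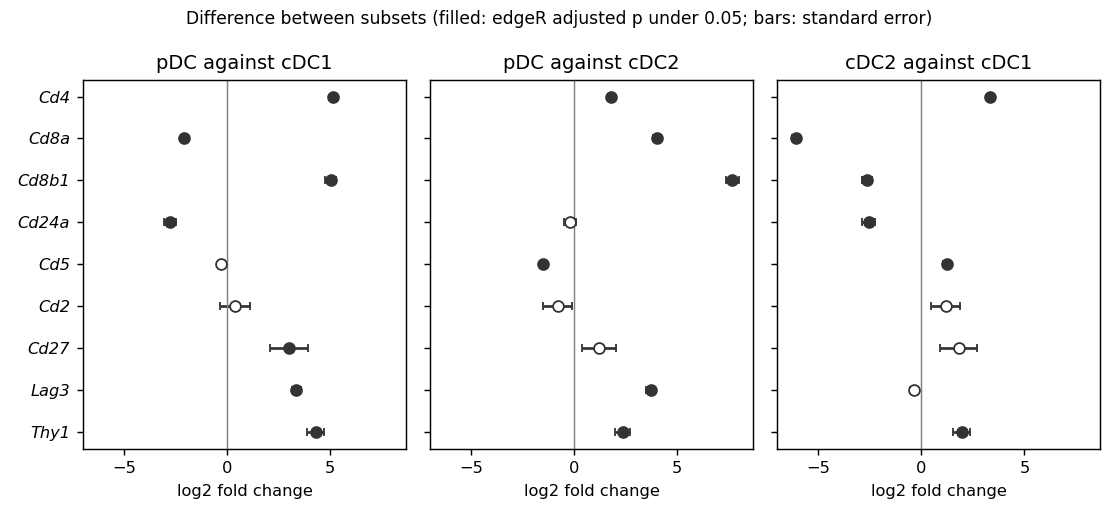
Log2 fold change of each of the 9 genes in the 3 comparisons of subsets from edgeR's quasi-likelihood fit, with bars of 1 SE, filled where the adjusted p was under 0.05. The values run from -6.08 for Cd8a (cDC2 against cDC1) to 7.67 for Cd8b1 (pDC against cDC2).

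The 2 CD8 chains had different orders across the subsets. Cd8a, the α chain, stood at 1309, 1316 and 1675 CPM in the cDC1 libraries, at 359.7, 274 and 378 in pDC and at 20.6, 24.6 and 18.1 in cDC2. The order was cDC1 over pDC over cDC2 with no overlap between libraries. Cd8a in pDC, where the sort did not gate on CD8, was 4.25-fold below cDC1 (log2 fold change -2.09, SE 0.17, adjusted p = 5.27e-06) and 15.9-fold above cDC2 (3.99, SE 0.18, adjusted p = 1.87e-07). The gated difference between cDC2 and cDC1 was -6.08 (SE 0.20) on the log2 scale.

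Cd8b1, the β chain, was instead a gene of pDC. It stood at 411, 403 and 415 CPM in pDC, at 11.4, 11.7 and 14.6 in cDC1 and at 2.04, 1.15 and 2.98 in cDC2. The pDC libraries lay within a narrow range (409.5 ± 6.06, n = 3), 32.7-fold above cDC1 (log2 fold change 5.03, SE 0.26, adjusted p = 3.44e-07) and 204-fold above cDC2 (7.67, SE 0.30, adjusted p = 1.03e-07). The lower values also separated: cDC2 was 6.23-fold below cDC1 (-2.64, SE 0.26, adjusted p = 7.26e-05), in every library pair. As a yardstick for these low levels, Cd8b1 in cDC1 was 3.07% of its pDC mean, and the pDC markers Siglech, Bst2, Ccr9 and Tcf4 stood in cDC1 at 0.570%, 3.69%, 3.81% and 3.92% of theirs. The share of Bst2, which encodes the gated CD317, was set in part by the sort. For Cd8a in pDC the share of the cDC1 mean was 23.5%, and for the cDC1 markers Xcr1, Batf3, Cadm1 and Clec9a it was 0.495%, 1.64%, 10.3% and 40.3%. The part of cells of another subset in either value was not tested.

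Levels of the chains can be compared with each other per kilobase of exon. Cd8a reached 394 ± 57.5 CPM per kb in cDC1 and 92.8 ± 15.3 in pDC, and Cd8b1 reached 8.46 ± 1.17 in cDC1 and 276 ± 4.09 in pDC. The ratio of Cd8a to Cd8b1 per kb, with a pseudocount of 1 CPM, was 43.0, 42.4 and 43.9 in the cDC1 libraries, 2.90, 4.85 and 1.96 in cDC2 and 0.357, 0.278 and 0.372 in pDC. The α chain was thus in excess in cDC1, and the β chain was in excess in all 3 pDC libraries, with no overlap between subsets. The mean log2 ratio came to 5.43 ± 0.026 for cDC1, to 1.60 ± 0.655 for cDC2 and to -1.59 ± 0.228 for pDC. The log2 differences were -7.02 (pDC minus cDC1) and -3.18 (pDC minus cDC2), each with a 2-sided exact permutation p of 0.1, the smallest that 3 libraries against 3 can reach, with libraries permuted freely across date codes. The difference between cDC2 and cDC1, -3.83, was set in part by the CD8 gate and is given with no test, and the gate on cDC1 and cDC2 also bears on the level of Cd8a that pDC is compared with. In cDC2 both chains were low, so that the pseudocount weighs on the ratio there.

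**Figure D3:**
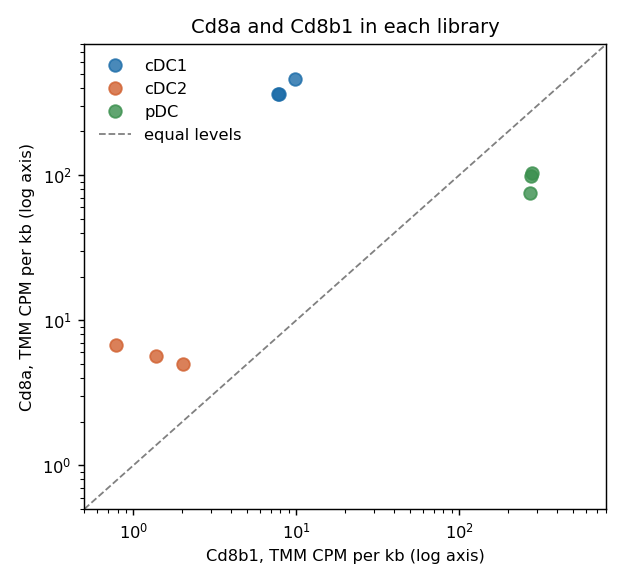
Cd8a against Cd8b1 in the 9 libraries, both in TMM-normalized CPM per kilobase of exon without a pseudocount on log axes, 1 point per library. The cDC1 libraries (means 394 for Cd8a and 8.46 for Cd8b1) and the cDC2 libraries lie on the Cd8a side of the dashed line of equal levels, and the pDC libraries (means 92.8 and 276) lie on the Cd8b1 side.

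Cd4, the coreceptor for MHC class II, had its highest level in pDC and an intermediate one in cDC2. It stood at 1450.0, 1343 and 1310.3 CPM in pDC, at 422, 385 and 391 in cDC2 and at 46.5, 32.5 and 38.9 in cDC1. No library of 1 subset reached the range of another. The pDC mean was 3.43-fold above cDC2 (log2 fold change 1.78, SE 0.13, adjusted p = 2.93e-06) and 34.8-fold above cDC1 (5.12, SE 0.15, adjusted p = 3.35e-08), and cDC2 was 10.2-fold above cDC1 (3.34, SE 0.14, adjusted p = 6.50e-07).

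Lag3, the CD4-related inhibitory receptor, was high in pDC alone of the 3 subsets. Its levels were 709, 699 and 737 CPM in pDC, 59.7, 55.1 and 94.3 in cDC1 and 50.1, 48.2 and 65.8 in cDC2. The pDC libraries stood apart from the rest, and those of cDC1 and cDC2 overlapped. The pDC mean was 10.3-fold above cDC1 (log2 fold change 3.36, SE 0.22, adjusted p = 1.32e-06) and 13.1-fold above cDC2 (3.71, SE 0.22, adjusted p = 7.86e-07), and the difference between cDC2 and cDC1 did not pass the test (-0.35, SE 0.20, adjusted p = 0.260). Per kb of exon, Cd4 and Lag3 reached like levels in pDC, 339 ± 18.1 for Cd4 and 339 ± 9.28 for Lag3, whereas in cDC2 they were 99.0 ± 4.97 for Cd4 and 25.9 ± 4.58 for Lag3.

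Cd24a, which encodes the heat stable antigen CD24, went with cDC1. It stood at 537, 543 and 763 CPM in cDC1, at 80.3, 109.9 and 123 in cDC2 and at 85.5, 55.4 and 129.8 in pDC. The cDC1 libraries lay above all others, while those of cDC2 and pDC overlapped. Cd24a was 6.81-fold lower in pDC than in cDC1 (log2 fold change -2.77, SE 0.31, adjusted p = 4.83e-05) and 5.88-fold lower in cDC2 than in cDC1 (-2.56, SE 0.30, adjusted p = 0.000224), and pDC against cDC2 did not pass (-0.21, SE 0.29, adjusted p = 0.592). Replicate 3 held the highest value within each subset.

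Cd5, an inhibitory scavenger receptor of T cells and some B cells, was highest in cDC2, at a lower level. It stood at 27.2, 30.2 and 32.7 CPM in cDC2, at 12.7, 10.7 and 15.4 in cDC1 and at 9.95, 11.2 and 10.9 in pDC. The cDC2 libraries lay above the others, and cDC1 and pDC overlapped. The cDC2 mean was 2.33-fold above cDC1 (log2 fold change 1.22, SE 0.16, adjusted p = 0.000478), pDC was 2.81-fold below cDC2 (-1.49, SE 0.17, adjusted p = 5.53e-05), and pDC against cDC1 did not pass (-0.27, SE 0.16, adjusted p = 0.202). Cd6, the related receptor next to Cd5 on chromosome 19, was lower in pDC than in cDC2 as well (0.931 ± 0.0599 against 3.11 ± 0.252 CPM, adjusted p = 0.0234).

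Thy1, which encodes the Thy-1 antigen of mouse T cells, was low throughout and highest in pDC. Its levels were 16.4, 13.5 and 25.0 CPM in pDC, 1.94, 3.50 and 5.47 in cDC2 and 0.874, 0.959 and 0.948 in cDC1. The subsets did not overlap, in the order pDC over cDC2 over cDC1. The pDC mean was 19.6-fold above cDC1 (log2 fold change 4.30, SE 0.42, adjusted p = 2.15e-05) and 5.07-fold above cDC2 (2.34, SE 0.38, adjusted p = 0.000630). For cDC2 against cDC1 the value was 1.96 (SE 0.41, adjusted p = 0.00635), and this call was lost with limma-voom (1.72, adjusted p = 0.0952). In pDC the 3 CD3 chains Cd3d, Cd3e and Cd3g together gave 15, 25 and 36 counts (0.454, 1.27 and 2.12 CPM). In cDC2 they gave 38, 116 and 95 (1.21, 4.06 and 5.05 CPM). No CD3 chain was called higher in pDC, though their counts were few. Within pDC, both this sum and Thy1 were highest in replicate 3, where Cd3e gave 16 of the 36 counts. Between replicates 1 and 2, the sum rose while Thy1 fell. A wider list of 10 T cell markers (given below, without Cd28 and Lat) summed to 3.15, 4.86 and 3.12 CPM in pDC, lowest in replicate 3. The part of T cell RNA in the Thy1 level of pDC was not tested.

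Cd27, the receptor for CD70, was near the limit of detection in cDC1, with 16, 10 and 0 counts. The 0 fell in replicate 3, the cDC1 library with the fewest counts and the fewest genes with a read (14886). Levels of Cd27 were 2.36, 1.37 and 4.89 CPM in pDC, 0.510, 1.22 and 2.07 in cDC2 and 0.583, 0.417 and 0 in cDC1. All pDC libraries lay above those of cDC1, and cDC2 overlapped both. Cd27 was 7.94-fold higher in pDC than in cDC1 (log2 fold change 2.99, SE 0.91, adjusted p = 0.0214), and this missed the threshold without cDC1 replicate 2 (3.13, adjusted p = 0.0612) and without pDC replicate 3 (2.37, adjusted p = 0.0518). Neither pDC against cDC2 (1.19, adjusted p = 0.281) nor cDC2 against cDC1 (1.80, adjusted p = 0.192) passed.

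Cd2, whose product binds CD48 in the mouse, passed no test. It stood at 0.892, 1.57 and 3.24 CPM in cDC2, at 1.39, 1.47 and 0.353 in pDC and at 0.583, 0.542 and 1.42 in cDC1. The libraries of all 3 subsets overlapped. The log2 fold changes were 0.38 (SE 0.71, adjusted p = 0.693) for pDC against cDC1, -0.80 (SE 0.70, adjusted p = 0.389) for pDC against cDC2 and 1.18 (SE 0.71, adjusted p = 0.287) for cDC2 against cDC1.

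Among the cDC2 libraries, replicate 1 was lowest and replicate 3 highest for 5 of the 9 members (Cd2, Cd27, Thy1, Cd5 and Cd24a). The summed NK cell markers and Lck had the same order. Among the 12 T cell markers, Cd3g, Cd3d, Cd247, Trbc1, Lat and Cd28 had it too. Cd3e (0.223, 0.560 and 0.425 CPM), Trac, Trbc2, Bcl11b, Themis and Cd6 did not. Lck, a kinase of T and NK cells that binds the tails of CD4 and CD8α, stood at 3.54, 10.1 and 13.2 CPM. The share of all genes with this order was not counted, so the 5 members are given as a description. Over all genes, replicate 3 differed most from the other replicates within each subset. The list of 12 T cell markers, of which 10 were tested (Bcl11b and Themis were too low), summed to 9.11 to 20.7 CPM in cDC2, 4.66 to 12.2 in cDC1 and 62.8 to 78.7 in pDC. The pDC sum came mostly from Cd28, a costimulatory receptor, at 57.0, 52.7 and 67.4 CPM, against 0.635 ± 0.744 in cDC1 and 1.06 ± 0.420 in cDC2. Cd28 and Lat, an adaptor of T cell receptor signalling, were the 2 listed genes higher in pDC than in either other subset, and Cd247 and Cd6 were the 2 lower in pDC than in cDC2. No listed gene passed between cDC2 and cDC1. Without Cd28 and Lat, which were set aside after their values were seen, the list summed to 3.12 to 4.86 CPM in pDC, 4.15 to 9.68 in cDC1 and 7.71 to 16.5 in cDC2. None of the 12 was at 0 in every library of a subset, while 6 were at 0 in at least 1 library: Cd3e in cDC1 replicate 3, Cd247, Trbc1 and Trbc2 in pDC replicate 3, Bcl11b in cDC2 and pDC replicate 3, and Themis in cDC1 replicates 2 and 3 and in cDC2 and pDC replicate 3. In each subset, replicate 3 had the fewest genes with a read: 14886 in cDC1, 14125 in cDC2 and 13486 in pDC. In pDC, replicate 2 had 16545 at a like depth (18990317 counts, against 17104516 in replicate 3). A 0 in replicate 3 is therefore not read as absence of a transcript. The part of T or NK cell RNA in the levels of the 5 members in cDC2 was not tested.

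**Figure D4:**
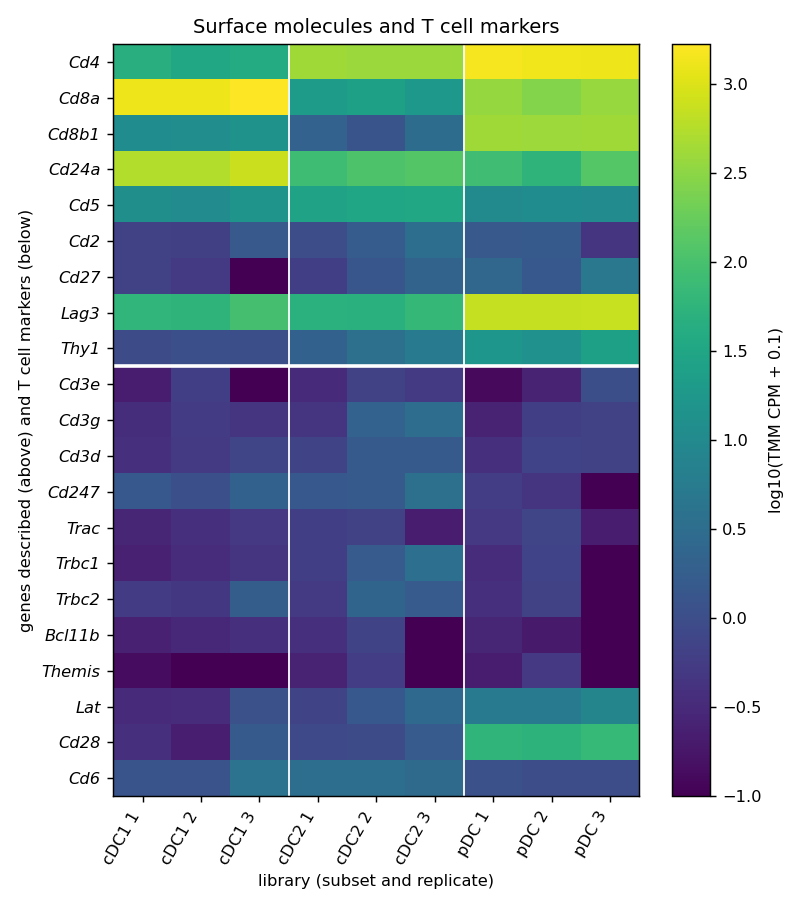
Heat map of the 9 genes described (upper rows) and the 12 T cell markers (lower rows) in the 9 libraries, coloured by log10 of TMM-normalized CPM plus 0.1. Among the markers, Cd28 stands at 52.7 to 67.4 CPM in pDC, while Cd3e is under 1 CPM in all 9 libraries and Cd3g is highest in cDC2 replicates 2 and 3, at 2.03 and 3.13.

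Of 20 genes for ligands, signalling partners and sheddases of the members, 18 were tested, Cd70 being too low and Fgl1, a LAG-3 ligand, having no count in any library. Against cDC1, pDC had 5 of them higher and 7 lower. Against cDC2, pDC had 3 higher and 8 lower, and cDC2 itself had 6 higher and 4 lower than cDC1. The shares of all genes that passed in these comparisons were 48.6%, 45.8% and 24.4%. The median log2 fold change of the 18 was -0.25, -0.30 and -0.04 in these comparisons.

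Fyn, a SRC-family kinase of T cells, followed the pattern of Lag3. It stood at 933, 1113 and 833 CPM in pDC, 97.8, 97.2 and 99.1 in cDC1 and 86.3, 89.1 and 99.3 in cDC2. The pDC libraries were far above the others, at log2 fold changes of 3.29 (SE 0.13, adjusted p = 6.42e-08) and 3.39 (SE 0.13, adjusted p = 8.85e-08). Lck, the kinase bound by the coreceptors themselves, was at 6.35 ± 1.69 CPM in pDC, 2.39 ± 0.298 in cDC1 and 8.95 ± 4.94 in cDC2. Both pDC and cDC2 were above cDC1 in Lck (adjusted p = 0.0253 and 0.0119).

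Among the ligands of CD4 and LAG-3, the MHC class II chains and Lgals3 were lower in pDC, and Il16, which encodes a soluble CD4 ligand, passed no test (252 ± 39.4, 198 ± 35.3 and 201 ± 34.5 CPM in cDC1, cDC2 and pDC). H2-Aa, an MHC class II chain, was at 5344 ± 653 CPM in pDC, 16286 ± 887 in cDC1 and 14881 ± 913 in cDC2, a log2 fold change of -1.61 against cDC1 (adjusted p = 1.14e-06) and -1.48 against cDC2 (adjusted p = 2.04e-06). H2-Ab1, its partner chain, was lower in pDC too (-2.01 and -1.62, adjusted p = 1.35e-07 and 4.45e-07). Lgals3, the galectin that binds LAG-3, was at 74.4 ± 30.7 CPM in pDC, 145 ± 18.9 in cDC2 and 422 ± 45.0 in cDC1, and all 3 comparisons passed. Siglecg, a receptor for CD24, was highest in cDC2 (115 ± 4.11 CPM) and lowest in cDC1 (24.2 ± 4.30), the subset with the most Cd24a. Cd48, the ligand of CD2, stood at 235 ± 42.6, 237 ± 27.6 and 229 ± 31.3 CPM in cDC1, cDC2 and pDC and passed no test. Adam10, a protease that sheds LAG-3, was 2.24-fold higher in pDC than in cDC1 (adjusted p = 7.67e-06), and Adam17, which does so too, passed no test.

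Of 12 transcription factors known from the choice between CD4 and CD8 in thymocytes, 11 were tested, Gata3 being too low. Between pDC and cDC1, 4 were higher in pDC (Runx3, Satb1, Ikzf1, Myb) and 2 lower (Zbtb7b, Tcf7). Between pDC and cDC2, Myb was higher and 4 were lower (Zbtb7b, Runx3, Cbfb, Tcf7), and between cDC2 and cDC1, 5 were higher in cDC2 (Zbtb7b, Runx3, Satb1, Tcf7, Ikzf1) and Myb was lower. Of all genes tested, 48.6%, 45.8% and 24.4% passed in these comparisons. The shares of regulators between pDC and either conventional subset were thus near those of all genes. Their median log2 fold change was 0.26, -0.23 and 0.64. Tcf7, which encodes TCF-1, had the widest range among them. It stood at 132, 118 and 136 CPM in cDC2, at 26.1, 14.8 and 22.0 in cDC1 and at 3.87, 3.14 and 3.77 in pDC, with no overlap and log2 fold changes of -2.54 (pDC against cDC1, adjusted p = 6.34e-06), -5.15 (pDC against cDC2, adjusted p = 1.58e-07) and 2.61 (cDC2 against cDC1, adjusted p = 1.56e-05).

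The factors tied to the 2 coreceptors were compared with them. Zbtb7b, which encodes ThPOK of CD4 T cells, was lowest in pDC (25.6 ± 7.25 CPM, against 47.3 ± 7.10 in cDC1 and 73.9 ± 3.82 in cDC2), where Cd4 was highest, but between the conventional subsets it was higher in cDC2, as Cd4 was (0.64, adjusted p = 0.0457). Runx3, a factor of CD8 T cells, was lowest in cDC1 (60.2 ± 10.7 CPM, against 128 ± 14.1 in cDC2 and 93.6 ± 4.71 in pDC), where Cd8a was highest. Myb was at 52.1 ± 7.32 CPM in pDC, 12.8 ± 0.636 in cDC1 and 7.49 ± 0.997 in cDC2, the same order as Cd8b1.

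Of the members, 5 lie on mouse chromosome 6 (GRCm38, gene spans from GENCODE M21). Cd8b1 (chr6:71322788-71337494) and Cd8a (chr6:71373427-71379173) are both on the plus strand, 35932 bases apart with no other gene of the table between them, although the subsets ordered them differently. Cd4 (chr6:124864692-124888221) and Lag3 (chr6:124904361-124911705) are both on the minus strand, 16139 bases apart, again with none between. Both were highest in pDC, but cDC2 was above cDC1 in Cd4 alone. Cd27 (chr6:125232622-125237010, minus strand) lies 320916 bases beyond Lag3. Of the 21 genes between Lag3 and Cd27, 15 were tested, and 2 were higher and 6 lower in pDC than in cDC1, a share near the 48.6% of all genes (24.3% higher and 24.4% lower).

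The genes next to the coreceptors were read as well. Gpr162, 708 bases from Cd4 on the same strand, had the order of Cd4, with 59.4 ± 1.30 CPM in pDC, 15.1 ± 2.99 in cDC2 and 2.46 ± 0.689 in cDC1. All 3 of its comparisons passed (log2 fold changes 4.56, 1.97 and 2.59). Whether reads past the end of one gene add to the count of its neighbour was not tested. Smyd1, 554 bases from Cd8b1 on the opposite strand, was at 10.1 ± 1.87 CPM in pDC and 7.92 ± 0.247 in cDC1, which did not pass (adjusted p = 0.520), and at 0.389 ± 0.324 in cDC2. Rmnd5a, on the other side of Cd8a, was at 278 ± 5.03 CPM in pDC, 144 ± 14.2 in cDC1 and 158 ± 6.87 in cDC2, and Ptms, next to Lag3, passed only between pDC and cDC1 (0.73, adjusted p = 0.0282). Of the other members, Cd24a lies at chr10:43578284-43584265, Cd5 at chr19:10717116-10739002, Cd2 at chr3:101275899-101287939 and Thy1 at chr9:44043384-44048579. Exon windows of 75 bases, the read length, that occur in other genes too made up 1.70% of Cd8b1, 1.10% of Cd24a and 2.23% of Cd27, where a microRNA gene, Mir8113, overlaps the exons, and 0 of the other members.

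**Figure D5:**
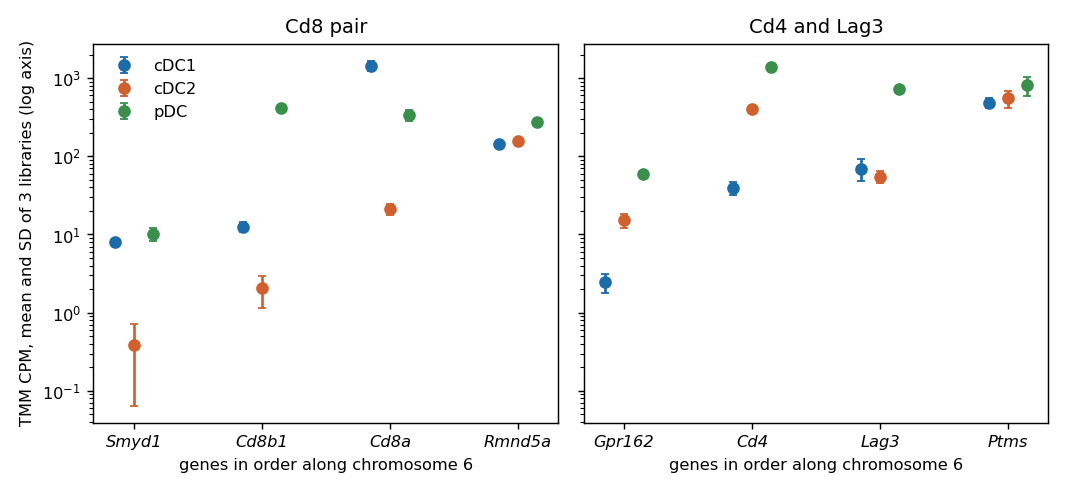
Mean level of the CD8 genes (left) and of Cd4 and Lag3 (right) with the nearest tested gene on either side, in their order along chromosome 6, as TMM-normalized CPM on a log axis, with bars of 1 SD over 3 libraries. Gpr162 has the order of Cd4, from 2.46 CPM in cDC1 to 59.4 in pDC, and Cd8b1 is highest in pDC where Cd8a is highest in cDC1.

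For each member, the 3 other tested genes with the most similar profile over the 9 libraries were found. The measure was the Euclidean distance between profiles of log2(CPM + 1), each centred on its mean. The added 1 CPM shrinks distances between genes at low levels, so that distances of high and low members are not comparable. The nearest to Cd4 were Hvcn1 (distance 0.886), Cd72 and Tnfrsf13b, of which Hvcn1, a proton channel, stood at 752 ± 24.5 CPM in pDC, 140 ± 13.9 in cDC2 and 18.7 ± 5.88 in cDC1. Cd8b1 was nearest to Ccr9 (0.566), the chemokine receptor that marks pDC, at 1259 ± 149 CPM in pDC, 48.0 ± 3.04 in cDC1 and 9.32 ± 1.44 in cDC2, followed by Paqr5 and Pacsin1. The genes nearest to Cd8a lay farther off, namely Laptm4b (3.03), Clec9a (3.06), a receptor for dead cells on cDC1, and Bst1 (3.15). Cd5 was nearest to Rel (0.280), an NF-κB subunit, at 65.1 ± 4.98 CPM in cDC2 against 30.0 ± 5.21 in cDC1 and 22.2 ± 2.06 in pDC, then to Gcnt1 and Lta4h. Lag3 was nearest to Hid1 (0.460), S1pr4 and Gm5884, and Cd24a to Fam160a2 (0.639) and Ptpn7. For the low members, these were Abhd14b, 1700026L06Rik and Cd164 for Thy1 (0.866 to 0.880), Trim30c, Myl6b and Ptar1 for Cd27 (0.680 to 0.819) and Col15a1, Retnlg and Gm16536 for Cd2 (0.645 to 0.704).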

How the data were processed

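RNA of 9 libraries from 3 sorted splenic DC subsets was made with a stranded poly(A) kit (TruSeq Stranded mRNA) and sequenced as single reads of 75 bases. The authors deposited 1 table of raw counts per gene, not normalized. The submitters' processing notes name STAR, SAMtools, featureCounts, MultiQC and the mm10 build. Versions, the annotation release and the strand setting are not given in the sources used here, and the study's methods name Degust for differential expression. Libraries were grouped by their labels, and every column of counts was used.

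The analysis ran in R 4.3.3 and edgeR 4.0.16. A filter (filterByExpr, minimum count 10) left 13819 of 39179 genes. All 9 libraries, scaled by TMM, were fitted together by subset, and each pair of subsets was compared by the quasi-likelihood test of edgeR, with p-values adjusted after Benjamini and Hochberg over every gene tested (threshold 0.05). DESeq2 1.42.0 and limma 3.58.1 were alternatives. Replicates differed beyond sampling noise (chi-square per degree of freedom 9.93 to 64.4). Within each subset, pairs with replicate 3 gave 39.7 to 64.4, and pairs of replicates 1 and 2 gave 9.93 to 18.6. The edgeR test was tried on simulated counts drawn independently for each library, with no effect shared by replicate number. No result here rests on that trial. Figures used Python 3.11.15 and matplotlib 3.10.9.

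In the labels, libraries with the same replicate number share a date code across subsets, and the pairing comes from there. Deviations from the subset means correlated in all 9 same-numbered pairs (0.266 to 0.543).

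The genes named are the members, genes of the lists (T cell, NK, subset and other markers, partners, regulators), the 3 genes most like each member, genes between members within 1 Mb, and each member's nearest tested neighbours. The members and lists were chosen with earlier results of these data known. A list of 6 macrophage genes was read too, with summed levels of 445 to 593 CPM in cDC2, then 156 to 221 in cDC1 and 50.5 to 176 in pDC. The cDC2 sum came mostly from Adgre1, at 344 ± 41.6 CPM, against 14.0 ± 6.14 in cDC1 and 14.0 ± 8.60 in pDC. Of the 6 genes, 3 passed as higher in cDC2 than in cDC1 and 3 did not pass. Some items are not reported here.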

Additional observations from a re-analysis of the deposited data

How the results depend on the processing

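Over all alternatives for the members, Cd3e and Cd3g, the calls were the same in 279 of 283 values that changed the processing and in 293 of 297 that left out a library, and no call reversed. The exceptions were Cd27 (pDC against cDC1) and Thy1 (cDC2 against cDC1), given above, and Cd3g, which passed with the replicate block, with DESeq2 (pDC against cDC2 -2.17, adjusted p = 0.0300, and cDC2 against cDC1 2.38, adjusted p = 0.0283) and without cDC2 replicate 1 (-2.66, adjusted p = 0.0199, and 2.86, adjusted p = 0.0290). The cause was not tested. Adding a minimum absolute log2 fold change of 1 left, by construction, fewer genes: 4063 between pDC and cDC1, 3837 between pDC and cDC2 and 1812 between cDC2 and cDC1, while the counts of members stayed at 7, 6 and 6. With the replicate block, which follows the pairing, 8094, 7663 and 4916 genes passed in place of 6718, 6328 and 3370, the counts of members stayed at 7, 6 and 6, and no call of a member changed. When each library was left out in turn, the counts were 5618 to 7108, 5346 to 6689 and 2449 to 4100 genes and 6 to 7, 6 and 6 members. With library size only, the share of calls that were higher in cDC2 than in cDC1 rose from 52.2% to 63.1% and the median of all genes from 0.03 to 0.14 (pDC against cDC1 from 0.02 to 0.11). The filter of at least 10 counts in every library left out Cd2 and Cd27. The differences in the CD8 ratio kept their sign throughout and ran from -6.89 to -7.12 for pDC against cDC1. This range does not cover pDC against cDC2, where the low levels in cDC2 make the difference depend on the pseudocount. Depth limits Cd2, Cd27 and the CD3 chains, whose counts were few, and the 15 to 17 mice of a pool give 1 value, so that the spread between mice was not measured.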
